A study of Mus musculus with 20 samples.

Results

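The libraries described here let the change of each gene between culture and colon be compared between Th17 cells that lack Il6ra, which encodes the ligand-binding chain of the receptor for IL-6, and WT Th17 cells. They were the 10 libraries titled post_KO, post_WT, pre_KO and pre_WT among the 20 of the series, and the other 10 were not used here. For every gene, the Il6ra-/- minus WT difference in the colon was compared with the Il6ra-/- minus WT difference before transfer. This double difference on the log2 scale is called the interaction. A positive interaction means that a gene gained more, or lost less, between culture and colon in Il6ra-/- cells than in WT cells.

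All 4 groups were CD4 T cells of C57BL/6 mice that carried the Il17f/Thy1.1 reporter, in which Il17f-expressing cells display Thy1.1. The Il6ra-/- cells were CD45.2 and the WT cells CD45.1. Both were cultured for 6 days with irradiated splenic antigen-presenting cells, antibodies to CD3, IFN-gamma and IL-4, 2.5 ng/ml of TGF-beta and 20 ng/ml of hyper-IL-6. Hyper-IL-6 joins IL-6 to soluble IL-6 receptor and so can signal in cells without Il6ra. The 3 Il6ra-/- and 3 WT colon libraries came from TCR-beta positive CD4 T cells, pooled by colon sample and sorted by CD45 allele 4 weeks after transfer of 200000 cells of each genotype into the same Rag1-/- hosts, which cannot make T or B cells. The 2 Il6ra-/- and 2 WT libraries before transfer came from the sorted Thy1.1+ cells of the cultures. Libraries numbered 0 belong to experiment 1 and those numbered 1 and 2 to experiment 2. The colon cells were not gated on the reporter, so the stages differ in gate, place and time together. The CD45 allele differs between the genotypes in every library, so an effect of Il6ra and an effect of the chromosome 1 region that carries the allele cannot be told apart. Mouse ages, and whether libraries came from separate mice, are not given, so the p-values reflect how far these libraries spread, which may be technical.

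IL-6 signals through its receptor alpha chain and the shared chain gp130 to STAT3, which together with TGF-beta signals induces the Th17 programme. IL-23 and IL-1 receptors maintain these cells in tissue, where they make IL-17 and IL-22. IL-12 acts through STAT4 and T-bet and can turn Th17 cells toward interferon-gamma production, a change described in the inflamed gut.

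Promoters of 3 genes that come up below are shown, from the list of Th1 genes (Il12rb2 and Nkg7) and that of Th17 genes (Ccr6). They are RefSeq sequences of GRCm38.p6, from 250 bases before to 50 bases after the start, 300 bases each. Capitals mark the STAT motif TTCNNNGAA and the T-box motif AGGTGTGA, each searched on both strands, and no matches overlapped. Il12rb2 (chr6:67376139-67376438, minus strand) held 1 STAT match, Nkg7 (chr7:43436888-43437187, plus strand) 1 STAT and 1 T-box match, and Ccr6 (chr17:8235793-8236092, plus strand, the first of its 2 entries) 2 STAT matches. The second Ccr6 entry (chr17:8242276-8242575), not printed, held 0 matches of either motif.
Il12rb2: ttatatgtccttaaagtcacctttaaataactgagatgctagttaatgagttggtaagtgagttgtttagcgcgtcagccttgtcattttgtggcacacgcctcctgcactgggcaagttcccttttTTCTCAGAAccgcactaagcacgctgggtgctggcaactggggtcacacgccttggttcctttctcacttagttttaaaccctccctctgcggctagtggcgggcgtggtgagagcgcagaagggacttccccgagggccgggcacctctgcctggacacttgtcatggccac
Nkg7: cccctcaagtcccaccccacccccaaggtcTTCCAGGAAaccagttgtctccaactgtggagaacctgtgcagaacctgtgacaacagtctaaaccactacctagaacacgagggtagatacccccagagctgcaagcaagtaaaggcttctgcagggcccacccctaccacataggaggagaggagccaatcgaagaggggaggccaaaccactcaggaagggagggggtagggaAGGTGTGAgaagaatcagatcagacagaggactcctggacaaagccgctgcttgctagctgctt
Ccr6: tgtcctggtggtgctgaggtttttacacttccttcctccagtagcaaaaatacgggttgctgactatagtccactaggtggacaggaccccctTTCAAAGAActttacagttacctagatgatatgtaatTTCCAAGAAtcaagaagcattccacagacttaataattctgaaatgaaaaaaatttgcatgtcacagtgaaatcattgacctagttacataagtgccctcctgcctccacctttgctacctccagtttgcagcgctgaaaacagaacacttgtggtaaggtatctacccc
Among all 32851 promoters of this length, 8.3% held the STAT motif and 1.28% the T-box motif. Of the 20 genes named below for their small p, 16 had a promoter in the table. The STAT motif was in 4 of these (Apold1, Ifitm3, Il12rb2 and Nkg7) and the T-box motif in 1 (Nkg7). A gene counted if any of its entries held the motif, while the shares over all promoters count each entry, so these are unlike measures. A match is a description of these letters and not a binding site.

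Gene counts summed to between 12718633 and 23745060 per library. The 10 T cell markers were detected in every library, with Cd4 at 1742 to 1840 CPM in Il6ra-/- and 1719 to 1962 CPM in WT colon libraries, and at 1201 and 1930 CPM in Il6ra-/- and 1422 and 1684 CPM in WT libraries before transfer (counts scaled to a common library size with TMM factors, here and below). Il6ra itself (chr3:89864059-89913196) had 4.85, 3.46 and 2.53 CPM in the Il6ra-/- and 10.7, 4.32 and 5.40 CPM in the WT colon libraries. Before transfer it had 80.6 and 123 CPM in the Il6ra-/- and 84.2 and 72.8 CPM in the WT libraries. The labels do not give which exons were deleted, so these counts do not check the genotype. Its interaction was -1.27 ± 0.54 (± SE, here and below), which was -0.79 without WT colon library 0, and did not pass.

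WT library 1 before transfer stood apart from the others. Ribosomal protein genes took 3.19% of its counts, against 1.01% to 1.54% in the other 9 libraries. It differed from WT library 0 by transcript length. The median log2 difference between them was 0.57 for genes whose longest transcript is under 2000 bases and -0.76 for those over 6000 bases, while the Il6ra-/- libraries before transfer differed by 0.00 and 0.13 in the same classes. Since this library is 1 of 2 in its group, its length pattern entered the interaction. The median interaction was 0.34 for genes under 2000 bases and -0.37 for genes over 6000 bases, and -0.04 and -0.05 without that library. Many of the interactions below that it moved by a large factor are also given without it. WT colon library 2 had 4.28% of its counts in mitochondrial genes, against 1.56% to 2.27% in the others.

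**Figure D1:**
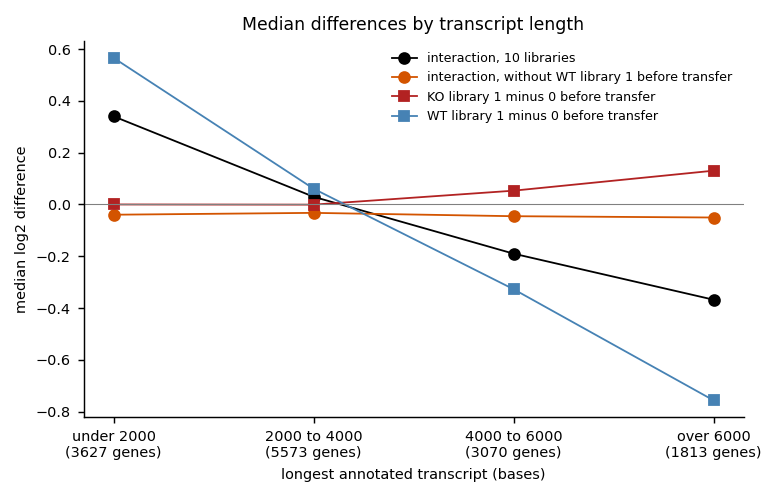
Median log2 difference (vertical axis) in 4 classes of longest annotated transcript (horizontal axis, bases). Black and orange circles are the median interaction with all 10 libraries and without WT library 1 before transfer, and red and blue squares are library 1 minus library 0 of Il6ra-/- and WT before transfer. The all-library interaction falls with length, by class medians of 0.34, 0.03, -0.19 and -0.37, and without WT library 1 before transfer the medians lie between -0.05 and -0.03.

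Of 14225 genes tested, 0 (0%) had an interaction with adjusted p under 0.05 in edgeR's quasi-likelihood test, and the lowest adjusted p was 0.678. At an unadjusted p under 0.05 there were 377 genes (2.65%), 174 higher (1.22%) and 203 lower (1.43%). Without WT library 1 before transfer, 1.11% of genes were higher and 1.51% lower at that p. Over all genes tested, 6874 interactions were positive and 7351 negative, and 6395 and 7830 without that library. These shares and counts are the background of the list counts below. The lists were chosen with earlier results of these data known, so a count above that background is a description and no test. Some genes are in several lists, so the counts of different lists are not independent. DESeq2 on the same groups called 13 genes (0.0914%), 6 higher and 7 lower. These were Apold1, AW112010, Cd8a, Il12rb2, Klrd1 and Nkg7 with positive and Abcc3, Ablim3, Gm15987, Igf1r, Lad1, Plcb4 and Prr29 with negative interactions. Same-numbered libraries of a stage also give a genotype difference for each pair. All 3 colon differences lay above both differences before transfer in 1458 genes (10.2%) and below both in 1713 genes (12%). Leaving out 1 library gave 0 calls in edgeR for 9 of the 10 libraries. Without WT library 0 before transfer, when WT library 1 alone stood for its group, 621 genes were called, 143 higher and 478 lower. In bulk samples, fewer cells of a type and less RNA per cell cannot be told apart, which holds for each result below.

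**Figure D2:**
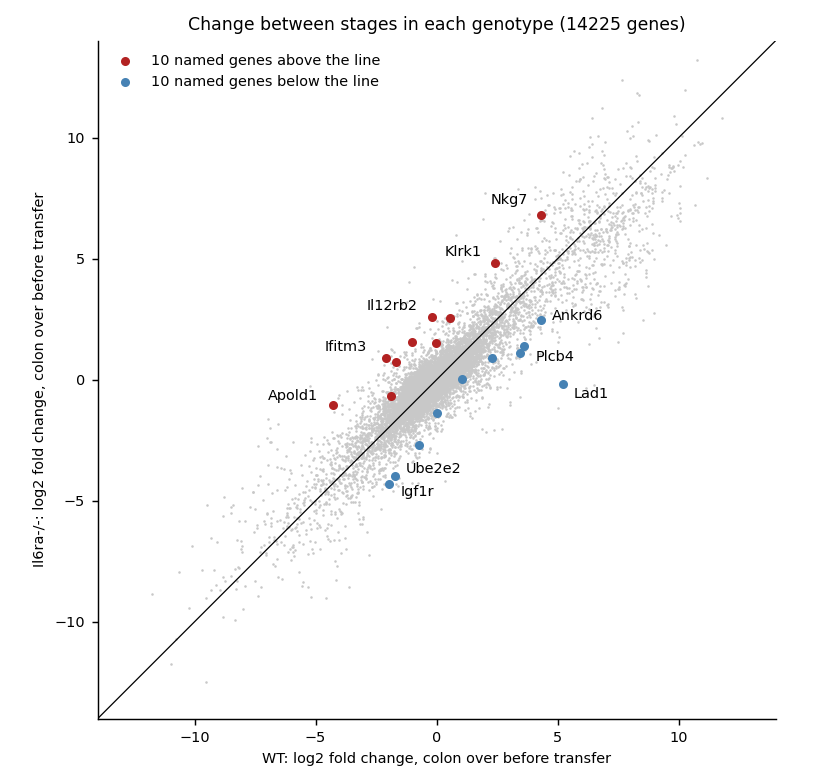
Log2 fold change of colon over before transfer in Il6ra-/- cells (vertical axis) and WT cells (horizontal axis) for the 14225 genes tested (grey). The line marks equal change, and the red and blue points are the 10 genes with the smallest interaction p on each side. Nkg7, Klrk1, Il12rb2, Ifitm3 and Apold1 lie above the line and Lad1, Plcb4, Ankrd6, Igf1r and Ube2e2 below it.

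Genes of the Th17 programme had negative interactions in 15 of 20 cases, and those of Il1r1, Ccr6 and Il23r were at or below -1.98. For Il1r1 (chr1:40225080-40317257, GRCm38 as for all positions here), the signalling receptor of IL-1, the colon libraries had 76.0, 51.3 and 59.3 CPM in Il6ra-/- and 372, 337 and 249.9 CPM in WT cells. Its levels before transfer were 146 and 78.3 CPM in Il6ra-/- and 163 and 46.0 CPM in WT cells. The log2 change was -0.85 in Il6ra-/- and 1.61 in WT cells, an interaction of -2.46 ± 0.65 (edgeR unadjusted p = 0.00305, adjusted p = 0.953). The colon groups stood clear of each other, while before transfer the lower value of each genotype was in experiment 2. Ccr6, the receptor of CCL20, had 26.2, 8.07 and 11.5 CPM in Il6ra-/- and 127, 40.3 and 68.6 CPM in WT colon libraries, with 39.3 and 30.7 CPM in Il6ra-/- and 57.7 and 7.19 CPM in WT libraries before transfer. Its interaction was -2.47 ± 1.07, and -1.65 without WT library 1 before transfer, which held the lowest of all 10 values. Without WT library 0 before transfer it was -4.67, and Ccr6 was then among the called genes. Il23r, the receptor chain specific to IL-23, had 7.45, 2.72 and 4.24 CPM in Il6ra-/- and 26.6, 12.9 and 17.2 CPM in WT colon libraries, and 10.5 and 10.7 CPM in Il6ra-/- and 15.2 and 5.80 CPM in WT libraries before transfer (interaction -1.98 ± 0.70).

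The Th17 cytokine genes differed less clearly, and part of their genotype difference was already present before transfer, except in Il21. The pair differences of Il21 before transfer were -0.33 and 0.31 log2 CPM. Il17a had 20.2, 3.79 and 12.9 CPM in Il6ra-/- and 119.8, 48.8 and 46.8 CPM in WT colon libraries, against 361 and 68.4 CPM in Il6ra-/- and 652 and 179 CPM in WT libraries before transfer. Its interaction of -1.58 ± 1.13 moved to -0.94 without WT library 1 before transfer, and was 0.05 without Il6ra-/- library 0 before transfer. For Il17f, whose locus drives the reporter used to sort the cells before transfer, the interaction was -0.99 ± 0.98, with -0.30 without WT library 1 and 0.16 without Il6ra-/- library 0. The 3 colon pairs had Il17f differences of -2.56, -3.20 and -2.81 log2 CPM, and the 2 pairs before transfer already had -1.85 and -1.59. Il22, whose product acts on epithelial cells, had 13.1, 9.80 and 17.0 CPM in Il6ra-/- and 79.0, 85.8 and 52.9 CPM in WT colon libraries, but 0.342 to 2.07 CPM before transfer. The interaction of Il22 was -1.29 ± 0.74 and that of Il21, a cytokine that acts on B and T cells, was -0.74 ± 0.52. Leaving out 1 library gave -2.57 to -0.55 for Il22 and -1.65 to -0.21 for Il21, the low ends without WT library 0 before transfer and the high ends without Il6ra-/- library 0 for Il22 and WT library 1 for Il21. Csf2, the gene of GM-CSF, had an interaction of -0.39 ± 0.66, which was positive without WT library 0 or Il6ra-/- library 1 before transfer (0.06 and 0.29) and -1.12 without WT library 1.

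Across the 20 genes of the Th17 programme list, all measured, 0 passed, 0 were higher and 4 lower at an unadjusted p under 0.05 (Il1r1, Il23r and Ccr6 among them). The median interaction was -0.53, beside -0.02 over all genes tested. Without WT library 1 before transfer 2 members were higher and 4 lower, beside 1.11% of all genes higher and 1.51% lower, and the median was -0.72. Leaving out each library in turn gave medians between -1.34 (without WT library 0 before transfer) and -0.22 (without Il6ra-/- library 0 before transfer). Pair differences lay below those before transfer in 10 members and above them in 2, beside 12% of all genes below and 10.2% above. With the pair as a block, the unadjusted counts were 1 higher and 9 lower, beside 2.19% of all genes higher and 2.66% lower. Stat3 was near 0 (interaction 0.13 ± 0.31, and 0.38 without WT library 1 before transfer), and Il12rb1, the receptor chain shared by IL-12 and IL-23, had 0.79 ± 0.36. A list called pathogenic Th17, genes reported in Th17 cells that cause autoimmunity, was split. Of its 18 genes, 4 were higher (Ccl4, Ccl5, Gzmb and Ifng) and 2 lower (Cxcl3 and Il23r) at an unadjusted p under 0.05. Over all genes these shares were 1.22% and 1.43%. The 4 higher genes are also in the Th1 list, and Il23r is also in the Th17 programme list. The median of the pathogenic Th17 list was 0.21. Without WT library 1 before transfer 1 was higher and 2 lower, the median was -0.08, and the interaction of the chemokine gene Ccl5 was -0.14, beside 2.14 ± 0.95 with all libraries. Cxcl3, a chemokine that attracts neutrophils, had 1.10, 2.88 and 2.94 CPM in Il6ra-/- and 13.7, 27.2 and 16.5 CPM in WT colon libraries, and 4.54 and 1.07 CPM in Il6ra-/- and 3.66 and 2.53 CPM in WT libraries before transfer. Its interaction was -2.93 ± 0.86, and -1.55 without Il6ra-/- library 0 before transfer.

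**Figure D3:**
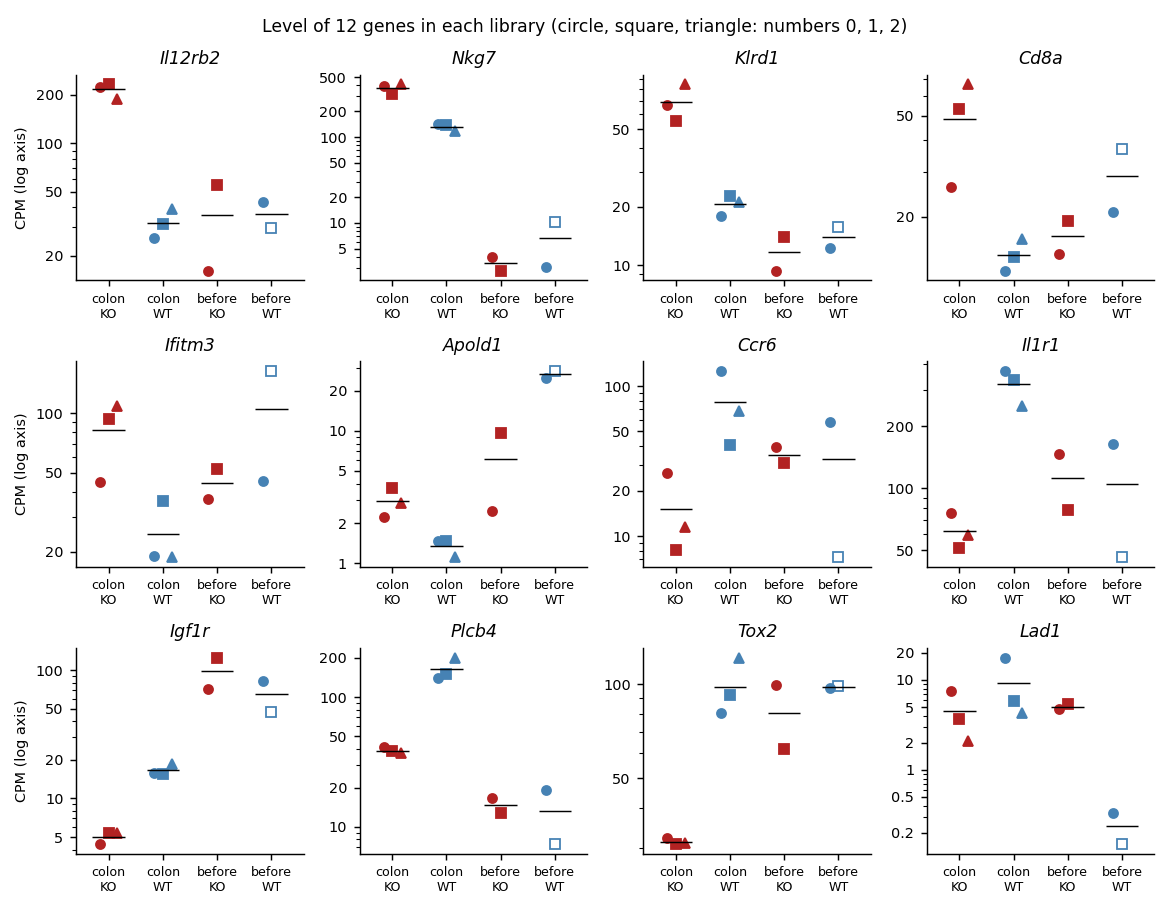
CPM (log axis) of 12 genes in every library, by group. Red is Il6ra-/- (KO on the axis) and blue WT, circles, squares and triangles are libraries 0, 1 and 2, bars are group means, and the open square is WT library 1 before transfer. Il12rb2, Nkg7, Klrd1 and Cd8a have their highest mean in Il6ra-/- colon libraries, Igf1r and Tox2 are lowest there, and Lad1 is lowest in WT libraries before transfer.

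Genes of interferon-gamma producing Th1 cells and their IL-12 receptor had positive interactions in 14 of 18 cases. Without WT library 1 before transfer, 10 were positive and 8 negative. Of all 14225 genes tested, 6874 were positive with all libraries and 6395 without that one. Il12rb2 (chr6:67291318-67376188), which encodes the chain of the IL-12 receptor that binds STAT4, had 224, 233 and 189 CPM in Il6ra-/- colon libraries against 25.9, 31.6 and 38.9 CPM in WT colon libraries. In culture it had 16.2 and 55.2 CPM in Il6ra-/- and 43.4 and 29.7 CPM in WT libraries. Every Il6ra-/- colon value lay far above every other value. The gene's log2 change was 2.59 in Il6ra-/- and -0.19 in WT cells, and the interaction 2.78 ± 0.59 (edgeR adjusted p = 0.953, DESeq2 adjusted p = 0.0169). Nkg7 (chr7:43437073-43438249), a protein of cytotoxic granules, had 392, 315 and 417 CPM in Il6ra-/- and 140.2, 139 and 117 CPM in WT colon libraries. It was low before transfer, at 3.96 and 2.78 CPM in Il6ra-/- and 3.10 and 10.2 CPM in WT libraries. Its interaction was 2.48 ± 0.55 (DESeq2 adjusted p = 0.0177), and 1.37 without WT library 1, the highest of the 4 before transfer. The promoters of both genes, printed above, each hold a STAT match. The first entry of Ccr6, a gene with a negative interaction, holds 2. Whether these matches play a part was not tested.

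Ifng, the cytokine gene of Th1 cells, had 293, 418 and 422 CPM in Il6ra-/- and 157, 271 and 256 CPM in WT colon libraries, and 0.513 to 2.07 CPM before transfer. The interaction was 1.44 ± 0.59, with 0.82 without Il6ra-/- library 1 and 2.58 without Il6ra-/- library 0 before transfer. In Tbx21, the gene of T-bet, it was 0.84 ± 0.72, from 177, 139 and 138 CPM in Il6ra-/- and 90.2, 88.3 and 77.4 CPM in WT colon libraries and 1.20 to 5.59 CPM before transfer. The Tbx21 value was -0.09 without WT library 0, 1.37 without WT library 1 and 2.32 without Il6ra-/- library 0, all before transfer. Cxcr3, a chemokine receptor of Th1 cells, shows how the sign can rest on 1 library. It had 209, 175 and 173 CPM in Il6ra-/- and 180.3, 169 and 147 CPM in WT colon libraries, while before transfer Il6ra-/- libraries had 0.388 and 0.726 CPM and WT libraries 0.470 and 2.03 CPM. The Cxcr3 interaction was 1.32 ± 0.64, and -0.07 without WT library 1 before transfer. Gzmb, the gene of granzyme B, had 1.55 ± 0.50, Fasl, the ligand of the death receptor Fas, 1.33 ± 0.45, the chemokine gene Ccl4 1.92 ± 0.59 and the tissue-homing receptor gene Cxcr6 1.03 ± 0.34. Gzmb moved to 0.92 without WT library 1, Fasl to 0.89 without WT library 0 and Ccl4 to 2.96 without Il6ra-/- library 0 before transfer. Of 18 Th1 genes, all measured, 0 passed. At an unadjusted p under 0.05, 8 were higher and 0 lower, beside 1.22% of all genes higher and 1.43% lower. Pair differences lay above those before transfer in 11 and below in 0, beside 10.2% of all genes above and 12% below. The median interaction of the list was 1.18, and 0.31 without WT library 1 before transfer. In that fit 5 members were higher and 0 lower, beside 1.11% of all genes higher and 1.51% lower. Without WT library 0 before transfer the median was 0.81.

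Receptors and chains typical of CD8, NK and gamma-delta T cells had positive interactions in 8 of 11 measured cases. Klrd1 (chr6:129591782-129598775), the gene of the NK receptor chain CD94, had 66.7, 55.3 and 85.3 CPM in Il6ra-/- and 17.9, 22.7 and 21.2 CPM in WT colon libraries. Before transfer it had 9.399 and 13.97 CPM in Il6ra-/- and 12.3 and 15.8 CPM in WT libraries, values that lay within a narrow range. The log2 change was 2.56 in Il6ra-/- and 0.55 in WT cells, and the interaction 2.01 ± 0.37 (edgeR adjusted p = 0.953, DESeq2 adjusted p = 0.00323). Cd8a (chr6:71373427-71379173), the alpha chain of the CD8 coreceptor, had 26.2, 53.2 and 66.7 CPM in Il6ra-/- and 12.3, 13.9 and 16.4 CPM in WT colon libraries. It had 14.3 and 19.3 CPM in Il6ra-/- and 20.99 and 36.98 CPM in WT libraries before transfer, so the WT cells were higher at that stage and the Il6ra-/- cells in the colon (interaction 2.56 ± 0.54). Klrk1, the gene of the activating receptor NKG2D, had 73.6, 29.6 and 44.6 CPM in Il6ra-/- and 20.0, 10.9 and 15.5 CPM in WT colon libraries and 1.28 to 3.62 CPM before transfer (interaction 2.40 ± 0.62). Of 13 markers, 11 were measured. At an unadjusted p under 0.05, 4 were higher (Cd8a, Klrd1, Klrk1 and Klrb1c) and 0 lower, beside 1.22% and 1.43% of all genes. The pair differences lay above those before transfer in 7 and below in 0, beside 10.2% and 12% of all genes. The median interaction was 1.13, and leaving out each library in turn gave 0.76 (without WT library 0 before transfer) to 1.89 (without Il6ra-/- library 1 before transfer). Klrb1c, the gene of NK1.1, differed from the others in that its colon levels were alike (7.80, 9.22 and 10.8 CPM in Il6ra-/- and 12.2, 12.1 and 9.13 CPM in WT libraries). Its interaction of 1.96 ± 0.61 came from 0.350 and 0.769 CPM in Il6ra-/- and 1.69 and 3.57 CPM in WT libraries before transfer.

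The summed level of 12 of these 13 markers was 530 to 667 CPM in Il6ra-/- colon libraries and 307 to 397 CPM in WT colon libraries, with 0 of them at 0. It was 51.7 and 55.9 CPM in Il6ra-/- and 60.0 and 113 CPM in WT libraries before transfer, with 1 or 2 markers at 0. Gamma-chain constant genes made up much of it. Tcrg-C2 had 232, 176 and 208 CPM in Il6ra-/- and 106, 84.8 and 139 CPM in WT colon libraries, and 0.555 to 3.65 CPM before transfer. The gamma-chain constant genes are similar in sequence, so counts of each alone are uncertain. Cd8b1, the beta chain of CD8, had 1.56, 15.4 and 9.17 CPM in Il6ra-/- and 1.41, 4.05 and 5.74 CPM in WT colon libraries. Its interaction was 2.71, and 1.21 without WT library 1 before transfer. The Cd4 interaction was -0.04 ± 0.33. The part of other lymphocytes in the interactions of Nkg7, Klrd1 and Cd8a was not tested.

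**Figure D4:**
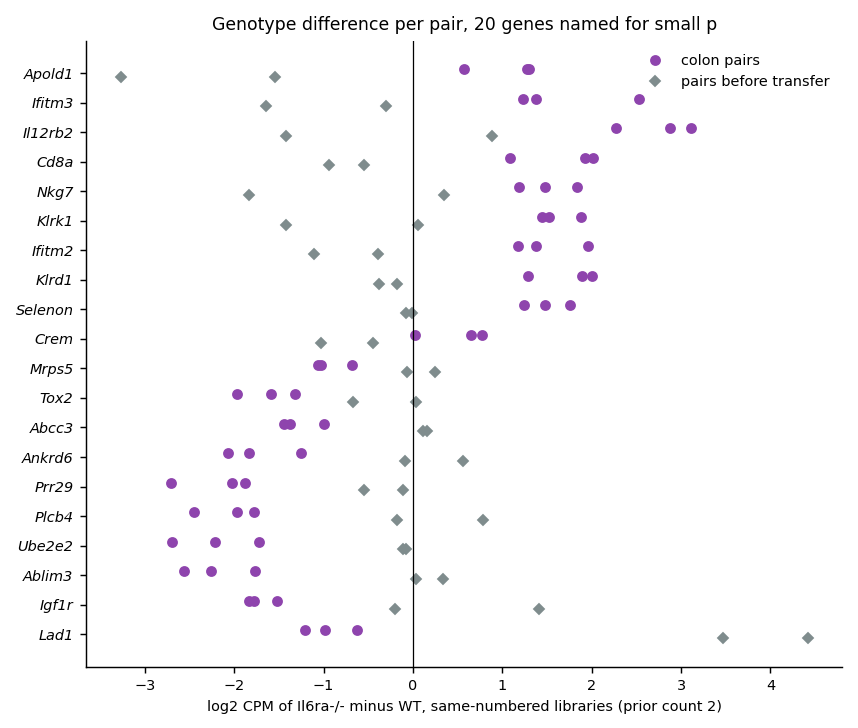
Log2 CPM of Il6ra-/- minus WT for each same-numbered pair of libraries (horizontal axis, prior count 2) in the 20 genes with the smallest interaction p, 10 of each sign. Purple circles are the 3 colon pairs and grey diamonds the 2 pairs before transfer. Colon and earlier pairs do not overlap in any of the 20 genes, which were chosen for small p on the same libraries.

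Regulatory T cell genes had positive interactions in 16 of 18 cases. Of these, 3 were higher (Tnfrsf18, Tnfrsf9 and Il10) and 0 lower at an unadjusted p under 0.05, beside 1.22% and 1.43% of all genes. The median interaction of the list was 0.83, and 0.68 to 0.99 when each library was left out in turn. Foxp3, their defining transcription factor, had 88.9, 35.7 and 43.7 CPM in Il6ra-/- and 19.3, 23.7 and 23.6 CPM in WT colon libraries, and 15.7 and 2.22 CPM in Il6ra-/- and 6.72 and 4.16 CPM in WT libraries before transfer. Its interaction was 0.62 ± 0.89, with -0.18 without Il6ra-/- library 1 and 2.60 without Il6ra-/- library 0 before transfer. Il10, the gene of an anti-inflammatory cytokine, had 22.3, 7.57 and 8.42 CPM in Il6ra-/- and 1.83, 4.58 and 4.71 CPM in WT colon libraries and 0.564 to 1.29 CPM before transfer (interaction 2.28 ± 0.89). The highest Il10 and Foxp3 values were both in Il6ra-/- colon library 0. Tnfrsf18, the gene of the costimulatory receptor GITR, had 114, 109.6 and 111 CPM in Il6ra-/- and 79.5, 84.9 and 70.6 CPM in WT colon libraries, with 185 and 287 CPM in Il6ra-/- and 286 and 610.3 CPM in WT libraries before transfer. Its interaction was 1.43 ± 0.42, and 0.78 without WT library 1 before transfer. Tnfrsf9, the gene of the costimulatory receptor 4-1BB, had 0.95 ± 0.34.

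Genes of type 2 cells gave 1 higher (Il1rl1) and 1 lower (Ccr4) of 11 measured members of 12 at an unadjusted p under 0.05, with a median of 0.40 that was 0.08 without WT library 1 before transfer, where 0 passed that p in either direction. Il1rl1, the receptor of IL-33, had 120.4, 209 and 146 CPM in Il6ra-/- and 4.71, 8.59 and 13.2 CPM in WT colon libraries. Before transfer it had 0.16 and 0 CPM in Il6ra-/- and 0.14 and 0.05 CPM in WT libraries. Its fitted interaction of 4.40 ± 1.64 depends on those few counts, was 8.03 without Il6ra-/- library 0 before transfer, and is no bound. The type 2 regulator gene Gata3 had 0.64 ± 0.48, or 0.08 without WT library 1 before transfer. Il4 had at most 2.66 CPM in any library. The chemokine receptor gene Ccr4 had 118, 84.0 and 85.4 CPM in Il6ra-/- and 237, 155 and 156 CPM in WT colon libraries (interaction -0.91 ± 0.40, and -0.58 without WT library 1 before transfer).

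Of 13 follicular helper genes, 12 were measured. At an unadjusted p under 0.05, 2 were lower and 0 higher, beside 1.43% of all genes lower and 1.22% higher. The median was -0.38, and -0.50 to -0.18 when each library was left out in turn. The lower genes were Tox2 (chr2:163203125-163324170), which encodes a transcription factor of the TOX family, and Pou2af1, a lymphocyte transcriptional coactivator. Tox2 had 32.1, 30.7 and 31.0 CPM in Il6ra-/- and 80.5, 92.5 and 122 CPM in WT colon libraries, with 99.5 and 62.2 CPM in Il6ra-/- and 97.5 and 98.9 CPM in WT libraries before transfer. The 3 Il6ra-/- colon values were almost equal and lay below all others. The log2 change was -1.37 in Il6ra-/- and 0.00 in WT cells, and the interaction -1.37 ± 0.34. Pou2af1 had 0.809, 0.494 and 0.821 CPM in Il6ra-/- and 2.25, 1.65 and 1.11 CPM in WT colon libraries, against 41.1 and 24.6 CPM in Il6ra-/- and 29.2 and 21.1 CPM in WT libraries before transfer (interaction -1.59 ± 0.53).

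Target genes of IL-6 and STAT3 were split, with 10 of 18 interactions positive and 8 negative. Socs3, the feedback inhibitor that STAT3 induces, had 107, 171 and 161 CPM in Il6ra-/- and 131, 174 and 115 CPM in WT colon libraries. Before transfer it had 218 and 569 CPM in Il6ra-/- and 175 and 578 CPM in WT libraries, low in experiment 1 and high in experiment 2 in both genotypes. The change was -1.43 in Il6ra-/- and -1.43 in WT cells, and the interaction 0.00 ± 0.70, a wide error. The Socs3 interaction was -1.10 without WT library 1 and 0.85 without Il6ra-/- library 1 before transfer. Bcl3, an NF-kappaB family coregulator that STAT3 induces, had an interaction of -0.13 ± 0.40, and -0.54 without WT library 1 before transfer. Il6st, the gene of gp130, had 0.44 ± 0.40, and 0.80 without that library. At an unadjusted p under 0.05, 2 of 18 targets were higher (Pim2 and Il10) and 0 lower, beside 1.22% and 1.43% of all genes. The median of the list was 0.07. Without that library 0 were higher. Pim2, a survival kinase, had 65.4, 63.4 and 61.2 CPM in Il6ra-/- and 30.1, 30.3 and 20.3 CPM in WT colon libraries, and 159 and 236 CPM in Il6ra-/- and 136 and 295 CPM in WT libraries before transfer. Its interaction was 1.36 ± 0.45, and 0.69 without WT library 1 before transfer. Among 14 receptors and receptor-shedding proteases of the IL-6 family, 1 was higher (Il12rb2) and 2 lower (Il23r and Il6ra) at an unadjusted p under 0.05, with a median of -0.05. Without that library 3 were higher and 0 lower. Of 12 IL-1 family receptors and adaptors, 1 was higher (Il1rl1) and 1 lower (Il1r1). The decoy receptor gene Il1r2, with 12.7, 38.7 and 45.4 CPM in Il6ra-/- and 54.5, 129.5 and 118 CPM in WT colon libraries, had an interaction of -0.999 with all libraries and -1.58 without WT library 1 before transfer.

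The gene with the smallest edgeR p of all was Gm15987, an antisense transcript within the Clec2g locus of the NK gene region on chromosome 6, named after its values were seen. It had 0.520, 1.32 and 0.821 CPM in Il6ra-/- and 9.70, 12.5 and 16.1 CPM in WT colon libraries, and 8.47 and 23.3 CPM in Il6ra-/- and 9.20 and 11.0 CPM in WT libraries before transfer. Its interaction was -4.53 ± 0.69 (edgeR adjusted p = 0.678). The strand setting of the counting is not stated, so its reads and those of Clec2g cannot be told apart with certainty.

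The 10 genes of smallest p on the negative side included a growth factor receptor. Igf1r (chr7:67952827-68233668), the receptor of insulin-like growth factor 1, had 4.39, 5.35 and 5.34 CPM in Il6ra-/- and 15.9, 15.6 and 18.6 CPM in WT colon libraries, tight groups that stood apart. In culture it had 71.6 and 125 CPM in Il6ra-/- and 82.5 and 46.9 CPM in WT libraries. The log2 change was -4.29 in Il6ra-/- and -1.95 in WT cells, and the interaction -2.34 ± 0.42 (edgeR adjusted p = 0.953, DESeq2 adjusted p = 0.00323). Plcb4 (chr2:135659011-136014593), a phospholipase C that acts below G protein-coupled receptors, had 40.9, 38.2 and 36.8 CPM in Il6ra-/- and 141, 149.6 and 201 CPM in WT colon libraries, and 16.8 and 12.7 CPM in Il6ra-/- and 19.1 and 7.34 CPM in WT libraries before transfer. It was higher in the colon in both genotypes, with log2 changes of 1.39 in Il6ra-/- and 3.63 in WT cells and an interaction of -2.24 ± 0.48. Abcc3, an export pump of organic anions, had 17.8, 17.3 and 16.8 CPM in Il6ra-/- and 46.5, 47.4 and 33.5 CPM in WT colon libraries and 8.13 to 9.75 CPM before transfer (interaction -1.43 ± 0.31). Ablim3, an actin-binding protein, had -2.31 ± 0.50, Ankrd6, a regulator of Wnt signalling, -1.88 ± 0.48, the ubiquitin-conjugating enzyme gene Ube2e2 -2.28 ± 0.56, Prr29 -1.98 ± 0.47 and the mitochondrial ribosome gene Mrps5 -1.03 ± 0.26. In these 5 genes the Il6ra-/- colon libraries were all below the WT colon libraries.

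On the positive side, Apold1 (chr6:134981718-134986836), a gene of the apolipoprotein L domain family, differed mainly before transfer. It had 2.25, 3.71 and 2.87 CPM in Il6ra-/- and 1.48, 1.47 and 1.11 CPM in WT colon libraries, but 2.49 and 9.70 CPM in Il6ra-/- and 24.9 and 28.4 CPM in WT libraries before transfer. The log2 change was -1.05 in Il6ra-/- and -4.29 in WT cells, and the interaction 3.24 ± 0.71 (DESeq2 adjusted p = 0.0195). Ifitm2 and Ifitm3, interferon-induced membrane proteins that restrict virus entry, lie with Ifitm1 in a cluster on chromosome 7. Ifitm3 had 44.7, 93.6 and 108 CPM in Il6ra-/- and 19.0, 35.9 and 18.7 CPM in WT colon libraries, and 36.7 and 52.3 CPM in Il6ra-/- and 45.4 and 163 CPM in WT libraries before transfer. Its interaction was 2.97 ± 0.75, and 1.76 without WT library 1 before transfer, which held the highest of all 10 values. Ifitm2 had 2.40 ± 0.59, and 1.62 without that library. Ifitm1, named after its values were seen, had 143, 140.1 and 141 CPM in Il6ra-/- and 32.8, 24.9 and 19.6 CPM in WT colon libraries. It had 23.0 and 101 CPM in Il6ra-/- and 37.4 and 236 CPM in WT libraries before transfer. Its interaction of 3.599 ± 0.98 (edgeR) compares with 1.73 ± 0.74 without WT library 1 before transfer, and it was the 1 gene to pass with the pair as a block (3.45 ± 0.31, edgeR adjusted p = 0.0381). The family's members are similar in sequence, so their separate counts are uncertain. Selenon, a selenoprotein of calcium handling, had 23.6, 28.8 and 39.8 CPM in Il6ra-/- and 8.37, 12.1 and 11.7 CPM in WT colon libraries and 10.4 to 11.4 CPM in every library before transfer (interaction 1.56 ± 0.39). Crem, a cAMP-responsive transcription factor, had 1.22 ± 0.32.

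A different pattern was a genotype difference of like size at both stages, which leaves the interaction small. Eps8l1, a relative of the EGFR substrate EPS8, had 25.6, 26.1 and 31.7 CPM in Il6ra-/- and 4.43, 3.20 and 3.18 CPM in WT colon libraries, and 22.8 and 20.1 CPM in Il6ra-/- and 1.60 and 3.02 CPM in WT libraries before transfer. The interaction was -0.26 ± 0.43, and -0.80 without WT library 1 before transfer. Ctse, the protease cathepsin E, had 21.8, 32.4 and 32.9 CPM in Il6ra-/- and 295, 348 and 391 CPM in WT colon libraries, and 9.40 and 25.2 CPM in Il6ra-/- and 106 and 228 CPM in WT libraries before transfer (interaction -0.30 ± 0.58, and -0.96 without that library). The kinase gene Camk2b had -0.24 ± 0.63, and -1.35 without that library. Ctse lies 6.39 Mb from Ptprc, the gene whose allele distinguishes CD45.1 from CD45.2 cells.

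Lad1 (chr1:135818598-135833342), a basement membrane protein of epithelia, had the largest interaction in size among the 20 genes with the smallest p. It lies 2.23 Mb from Ptprc. In the colon it had 7.63, 3.71 and 2.12 CPM in Il6ra-/- and 17.7, 5.79 and 4.29 CPM in WT libraries. Before transfer it had 4.74 and 5.38 CPM in Il6ra-/- and 0.329 and 0.149 CPM in WT libraries, the lower of these from 3 counts. Only WT cells before transfer were low, and the interaction was -5.40 ± 1.07 (DESeq2 adjusted p = 0.00142). Within the colon its highest value was in WT library 0 and its lowest in Il6ra-/- library 2. The same held for the epithelial gene Vil1, which had 15.3, 7.74 and 4.59 CPM in Il6ra-/- and 37.7, 12.6 and 7.47 CPM in WT colon libraries. The summed level of 12 epithelial markers was 182 to 397 CPM in Il6ra-/- and 206 to 786 CPM in WT colon libraries, with 0 of 12 at 0, and 33.9 to 116 CPM in Il6ra-/- and 43.4 to 115 CPM in WT libraries before transfer, with 1 to 5 at 0. Their part in the Lad1 value was not tested, and an effect of the region near Ptprc cannot be told apart from one of Il6ra.

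The oxidative phosphorylation, cell cycle and cholesterol synthesis lists depended on single libraries before transfer. Oxidative phosphorylation genes had 0 of 21 past an unadjusted p of 0.05 and a median interaction of 0.42, which was 0.10 without WT library 1 and 0.83 without Il6ra-/- library 0 before transfer. Cell cycle genes (27) had a median of -0.20, with -0.74 without Il6ra-/- library 1 and 0.61 without Il6ra-/- library 0. Cholesterol synthesis genes (22) had 0.13, with -0.30 without WT library 0 and 0.41 without WT library 1, with 2 higher at an unadjusted p under 0.05. Glycolysis genes had a median of 0.34, and 0.29 to 0.52 when each library was left out in turn, with 1 of 21 higher at an unadjusted p under 0.05. That gene was Slc16a3, a lactate exporter, which had 16.9, 22.9 and 19.5 CPM in Il6ra-/- and 14.9, 22.3 and 12.7 CPM in WT colon libraries, and 359 and 314 CPM in Il6ra-/- and 512 and 501 CPM in WT libraries before transfer (interaction 0.83 ± 0.35).

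The other lists had few members past an unadjusted p of 0.05. Among 21 homing and residency genes, Cxcr6 was higher and Ccr6 and the collagen-binding integrin gene Itga2 (-1.59 ± 0.57, and -0.70 without Il6ra-/- library 1 before transfer) lower. Among 13 inhibitory receptors and their regulators Lag3 was higher (0.98 ± 0.44, and 0.55 without WT library 1 before transfer). Of 16 measured survival and death genes of 17, Fasl was higher. Without WT library 1 before transfer the counts were 2 higher and 1 lower for homing, 0 for inhibitory receptors, and 2 higher each for glycolysis and survival. Over all genes 1.11% were higher and 1.51% lower in that fit. With all libraries there were 0 of 26 interferon-stimulated genes, 0 of 12 naive and central memory genes, 0 of 18 immediate-early genes and 0 of 20 amino-acid and stress response genes. The medians of these 4 lists were 0.15, -0.13, 0.27 and -0.22. Naive and central memory genes had medians of 0.40 without Il6ra-/- library 1 and -0.64 without WT library 1 before transfer, the second with 2 of 12 lower, and interferon-stimulated genes then had 2 of 26 lower. Among markers of other cells there were 0 of 12 epithelial, 0 of 15 myeloid, 0 of 6 B cell and 0 of 5 erythroid genes and 1 of 10 stromal and endothelial genes at an unadjusted p under 0.05. The median of the epithelial markers was -0.49, with 0.56 without WT colon library 0 and -1.07 without WT library 1 before transfer. That of the 10 T cell markers was 0.26, or 0.03 without the same library.

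**Figure D5:**
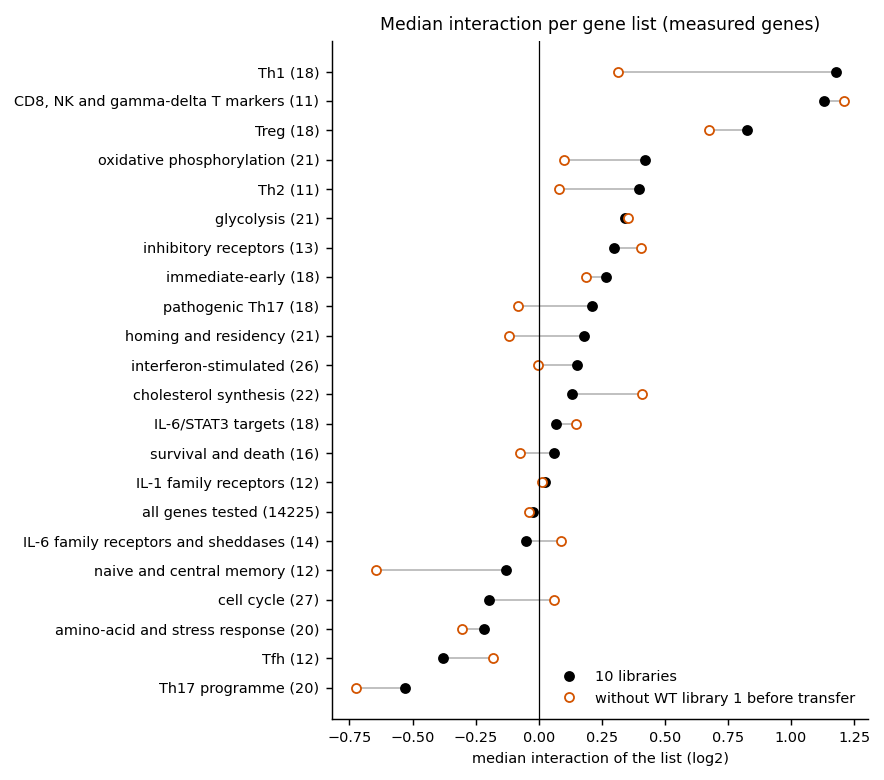
Median interaction (log2, horizontal axis) of 21 gene lists and of all genes tested, with the number of measured genes in parentheses. Black circles use all 10 libraries and open orange circles leave out WT library 1 before transfer. The Th1 median is 1.18 with all libraries and 0.31 without that one, the CD8, NK and gamma-delta median 1.13 and 1.21, and the Th17 programme median -0.53 and -0.72.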

How the data were processed

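RNA of 3 colon and 2 culture libraries per genotype was sequenced as stranded poly(A) libraries, per the labels' protocols. STAR 2.5.3, SAMtools 0.1.18 and HTSeq 0.7.2 are named per the submitters' processing notes, with DESeq2 1.18.1 and R 3.4.3, while neither an annotation release nor a strand setting is stated. The authors deposited raw read counts for 39179 gene IDs per library. The 5 summary lines were left out. Reads without a gene feature were 18.1% to 30.8%, and ambiguous reads 0.526% to 0.844%, of the gene, no-feature and ambiguous counts together. Names and positions came from GENCODE M21 (GRCm38), which held 37607 IDs.

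Counts were scaled by TMM, filtered with filterByExpr by group and fitted with 4 group means in edgeR 4.0.16 (quasi-likelihood, R 4.3.3, limma 3.58.1), with Benjamini-Hochberg adjustment over 14225 genes and a threshold of 0.05. The scripts were tested on simulated data. Log2 CPM of pairs used a prior count of 2. Counting error sets the precision of low values. Alternatives were DESeq2 1.42.0, other scaling and filters, blocks, an experiment term and leaving out libraries. The labels tie number 0 to experiment 1 and numbers 1 and 2 to experiment 2, and both genotypes shared hosts. Deviations of same-numbered colon libraries correlated at 0.58, 0.237 and 0.183 and those before transfer at 0.43, each over 0.1, so numbers were taken as pairs in the alternative. With 2 libraries per group before transfer that value is the same for both numbers. Within experiment 2 the crossed colon numbers correlated at 0.279 and 0.205, so numbers 1 and 2 are not told apart there by these values.

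Named genes were the 10 of smallest p in each direction with mean log2 CPM of at least 2, without predicted genes or receptor segments, a fixed set of IL-6, Th17 and Th1 genes, and up to 4 members of each list. The members and lists were chosen with earlier results of these data known. The other 10 libraries of the series were not analysed here. Of the Th17 list, 1 gene is not reported here.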

Additional observations from a re-analysis of the deposited data

Results flagged for a closer look

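Among the 68 named genes, 22 had all 3 colon pairs different between Il6ra-/- and WT in one direction and both pairs before transfer in the other. Many of them were named for a small interaction p on these libraries, and the edgeR interaction passed over all genes in 0 of them. The share of all genes tested with this pattern is not given, so the 22 are a description and not a result about these genes. Without the condition on sign, colon pair differences lay all above those before transfer in 10.2% of all genes and all below in 12%.

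With the Il6ra-/- cells higher in the colon and lower before transfer, the interactions were 2.01 for Klrd1, 2.56 for Cd8a, 2.71 for Cd8b1, 3.24 for Apold1, 3.599 for Ifitm1, 2.40 for Ifitm2, 2.97 for Ifitm3, 1.07 for AW112010, 1.56 for Selenon, 1.22 for Crem, 1.43 for Tnfrsf18, 1.92 for Ccl4, 1.03 for Cxcr6, 1.33 for Fasl, 1.44 for Ifng, 0.83 for Slc16a3 and 1.32 for Cxcr3. With the Il6ra-/- cells lower in the colon and higher before transfer, they were -5.40 for Lad1, -2.31 for Ablim3, -1.43 for Abcc3, -1.59 for Pou2af1 and -1.99 for Vil1. Some differences before transfer were near 0, such as -0.009 and -0.08 log2 CPM for Selenon and 0.03 in pair 0 for Vil1 and for Ablim3. Vil1 had 0.194 and 0.470 CPM in Il6ra-/- and 0.188 and 0.149 CPM in WT libraries before transfer, from few counts, so its direction there is uncertain. Without 1 library the interaction of Cxcr3 turned, and those of Cd8b1, Ifitm1, Ifitm3, Tnfrsf18, Ccl4, Fasl, Ifng and Vil1 moved by over 1.5 times.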

How the results depend on the processing

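The count of 0 called genes held with RLE scaling, a stricter filter, the replicate block across stages, an experiment term, and without WT library 1 before transfer and WT colon library 2. It was 13 with no filter and 13 with DESeq2 (9 shared), 1 with the pair as a block within stage, and 0 to 621 when each library was left out. In that last case 1 library stands for its group and is assumed to vary like the others. Genes at an unadjusted p under 0.05 numbered 693 with no filter, 689 with the pair block and 211 to 3479 without 1 library, beside 377.

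There were 18 alternatives, of which 17 tested Il4. Of 68 named genes, 52 had the same sign under every alternative that tested them, the 20 of smallest p, named for that p, among them. The other 16 turned when a library was left out, with ranges of -2.81 to 0.048 for Il17a, -2.37 to 0.16 for Il17f, -1.12 to 0.29 for Csf2, -0.090 to 2.32 for Tbx21, -0.069 to 2.01 for Cxcr3, -0.18 to 2.60 for Foxp3, -0.066 to 0.80 for Il6st, -1.10 to 0.85 for Socs3, -0.54 to 0.18 for Bcl3, -0.21 to 0.38 for Stat3, -0.80 to 0.10 for Eps8l1, -0.96 to 0.58 for Ctse, -1.35 to 0.39 for Camk2b, -0.14 to 3.18 for Ccl5, -0.37 to 0.34 for Cd4 and -0.037 to 2.63 for Tcrg-C2. Without both doubted WT libraries Cxcr3 was -0.14 and Ccl5 -0.24. Leaving out 1 library moved 38 of the 68 by over 1.5 times or turned them.

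The groups held 2 or 3 libraries, with 6 residual degrees of freedom. The cause of each change was not tested.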
